A study of Saccharomyces cerevisiae with 28 samples.

Results

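A budding yeast strain labelled 4Gts was followed from 0 h at 25 °C to 2 h at 36 °C in the rich medium YPA, with galactose present at both times. The description rests on 4 of the 28 libraries of the series: ribosome footprints and total mRNA of the 0 h culture, and the same 2 layers of the 2 h culture. Footprints are the mRNA fragments that ribosomes protect from RNase. The series concerned yeast depleted of eIF4G. The libraries were chosen by a rule that uses only their labels, but with earlier results of these data known. The 4Gts strain is YWG1246 (YAJ41) and the comparison strain, WT, is YWG1245 (YAJ3), and the labels used here give no alleles for either code. Both strains grew in YPA with 2% raffinose at 25 °C (pre-shift), then had 2% galactose for 30 min at 25 °C (0 h) and were then held at 36 °C for 2 h. All cultures received 0.1 mg/ml cycloheximide just before harvest. Each strain and time in YPA is 1 culture, so no value below has a replicate check in this medium, and no test was made and no p-value is given. The 2 times also differ in both temperature and length of galactose exposure, which cannot be told apart.

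eIF4G is the scaffold of eIF4F, the complex that joins the capped 5′ end of an mRNA to the small ribosomal subunit through eIF4E, eIF4A and eIF3. Budding yeast has a pair of eIF4G genes, TIF4631 and TIF4632. When yeast is warmed, the transcription factors Hsf1 and Msn2/Msn4 normally raise the mRNAs of chaperones and general stress proteins, while mRNAs for building ribosomes fall for a time and then recover. Galactose induces the GAL genes through Gal4 in cells that lack glucose, and genes for respiration and for other sugars are held down when glucose is present.

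Levels are RPKM, which divides reads by gene length and by library depth, and are therefore relative to the rest of a library: in bulk cultures a lower level in every cell and fewer cells with the mRNA cannot be told apart, and total RNA per cell was not measured. Differences are log2(RPKM + 1) at 2 h minus 0 h after each library was scaled to the median gene, and the ratio is the footprint difference minus the mRNA difference of the same gene. A gene was kept with a mean of at least 10 RPKM over the 2 4Gts libraries of each layer, which left 4755 of 6692 genes, 4455 of them with a gene name. Depth, read from the smallest steps of the values, in M (mega) reads, was 2.09 M and 2.32 M for mRNA at 0 h and 2 h, and 3.42 M and 1.35 M for footprints. The 2 h footprint library was the shallowest of the 12 in YPA, and a gene of 1 kb at 10 RPKM has a counting error of 27.2% there. WT libraries at these times held 2.61 M to 5.15 M reads. Replicates exist in the series only in SC, another medium, with 2 samples in each of 4 groups, and the labels do not say whether they came from separate cultures. Those replicate pairs serve below as the nearest measured spread, and they come from tables normalized separately.

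The strain labels were checked first on the eIF4G genes. TIF4632 had 0.526 RPKM of mRNA at 0 h and 0.631 at 2 h in 4Gts, 3 and 4 reads, against 81.8 and 52.8 in WT, so the libraries labelled 4Gts lacked nearly all TIF4632 reads at both times. TIF4631 was present in 4Gts at 324 and 175 RPKM of mRNA and in WT at 174 and 208. Its log2 difference was -1.04 in 4Gts and 0.16 in WT for mRNA, and -0.89 and -0.12 for footprints. The largest difference between SC replicates for TIF4631 mRNA was 1.03. The ratio of TIF4631 footprints to mRNA was 0.412 and 0.433 in 4Gts against 0.975 and 0.808 in WT, so it was lower in 4Gts already at 0 h. No protein was measured, so these values do not show how much eIF4G protein was left at 2 h. UBR1, the ubiquitin ligase of the N-degron pathway that degron strains often carry under a galactose promoter, stood at 50 RPKM pre-shift, 1749 at 0 h and 482 at 2 h in 4Gts. The WT values were 47.6, 1849 and 2476, so both strains had high UBR1 mRNA at 0 h and only WT still had it at that level at 2 h. Mating-type markers read as a cells: all 7 a-cell markers averaged at least 10 RPKM in both layers, while 5 alpha-cell markers summed to 14.4 to 22.7 RPKM of mRNA per library, with STE3, MF(ALPHA)1, MF(ALPHA)2 and MATALPHA1 below 1. The remaining alpha-cell marker, SAG1, reached 10 RPKM of mRNA but was below 1 in footprints.

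Among the genes kept, more mRNAs differed at least 2-fold between the times in 4Gts than in WT. Genes were kept by their 4Gts levels alone, so a gene high only in WT could be left out. What this does to the comparison of the strains was not tested. Of the 4755 genes, 569 (12.0%) were at least 2-fold higher at 2 h and 725 (15.2%) at least 2-fold lower in 4Gts mRNA, which together is 27.2%. In WT the counts were 342 (7.19%) and 167 (3.51%), together 10.7%. SC replicate pairs, 2 samples of 1 label each, passed 2-fold for 10.3% to 15.5% of genes. The WT share therefore lay inside the range of replicate pairs and the 4Gts share above it. Footprints gave 591 genes higher (12.4%) and 742 lower (15.6%) in 4Gts, together 28.0%, against 5.91% higher and 3.93% lower in WT, together 9.84%, and 9.43% to 19.6% in the replicate pairs. The footprint to mRNA ratio differed 2-fold for far fewer genes: 141 higher (2.97%) and 146 lower (3.07%), together 6.04%. WT had 0.778% and 1.93%, together 2.71%, and the replicate pairs 1.77%, 1.9%, 2.66% and 4.9%. The excess of ratio differences over the noisiest replicate pair was thus small, and it rested on the shallowest footprint library. At a log2 size of 2.0 the excess was absent, with 0.3785% of genes in 4Gts against 0.4374% in that pair. Without the library scaling the ratio split was 115 higher and 185 lower.

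**Figure D1:**
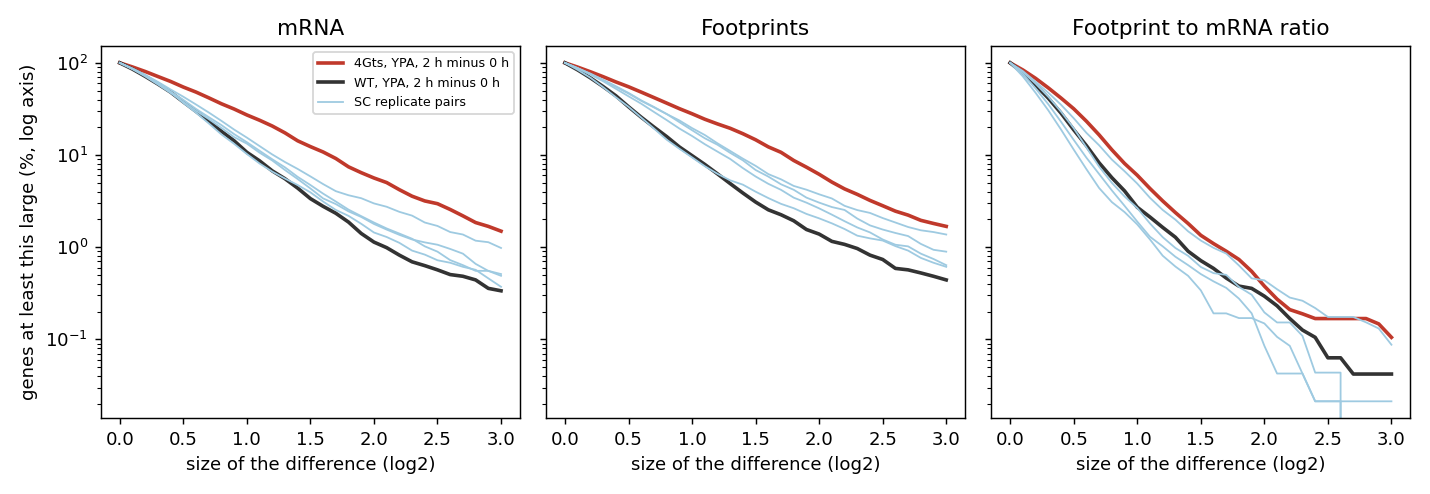
Share of genes (%, log axis; shares of 0 are not drawn) whose difference is at least the size on the x axis (log2), for mRNA, footprints and their ratio. The red line is 4Gts 2 h minus 0 h, the black line WT, and the 4 pale lines are the SC replicate pairs. At a log2 size of 1 the 4Gts line is at 27.2% for mRNA and 28.0% for footprints, above all 4 replicate pairs, and at 6.04% for the ratio, close to the highest pair at 4.9%.

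The share plot shows that the distance between 4Gts and the replicate pairs at a log2 size of 1 was wider for mRNA and footprints than for the ratio. Footprints followed mRNA: 418 of the 569 mRNAs at least 2-fold higher also had footprints at least 2-fold higher, 531 of the 725 lower ones also had lower footprints, and 0 went opposite ways. Across genes the mRNA and footprint differences had a Pearson r of 0.866, given as a description over 4755 genes that share the same 4 libraries. Of the mRNAs 2-fold higher in 4Gts, 247 (43.4%) were also 2-fold higher in WT, which is 72.2% of the WT set. Of the mRNAs 2-fold lower in 4Gts only 110 (15.2%) were also lower in WT, or 65.9% of the WT set. Among the genes kept, the difference between strains therefore lay mainly among the mRNAs that were lower at 2 h.

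Gene groups are given below by the number of members at least 2-fold higher or lower, their median, and the same in WT, to be read against 12.0% and 15.2% of all genes and a median of all genes of 0.01 in 4Gts and -0.02 in WT. Of the 1194 genes in the lists 18 are in more than 1, among them PGM2, GAL2, HXK1 and GLK1, so the groups are not fully separate.

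Nuclear genes of respiration were lower in 4Gts mRNA at 2 h. The list of nuclear genes for respiratory chain and ATP synthase subunits had 39 kept members, and all 39 were at least 2-fold lower, with log2 differences from -3.35 to -1.11 and a median of -1.71. In WT 1 was lower and 1 higher, with a median of -0.22. The same list differed by at most 0.14 between SC replicates, so its mRNA median in 4Gts was far outside the replicate range measured there. Its summed mRNA went from 30622 RPKM at 0 h to 10073 at 2 h in 4Gts and from 30593 to 29246 in WT, so the strains started level. SDH1, the flavoprotein subunit of succinate dehydrogenase, had 343 RPKM at 0 h and 36.4 at 2 h in 4Gts, against 324 and 193 in WT. ATP1, the alpha subunit of the ATP synthase, had 1596 and 303 in 4Gts, against 1276 and 1111 in WT. Both genes were close between strains at 0 h and apart at 2 h. Footprints of the list were lower as well, with 27 of 39 members past 2-fold and a median of -1.21, against 0 members and 0.04 in WT. COX5B, the hypoxic form of cytochrome c oxidase subunit 5, was lower in 4Gts and higher in WT, with 43.1 and 17.9 RPKM in 4Gts, while WT had 43.1 and 95.5. The 2 h footprint value of COX5B rests on 10 reads.

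The mitochondrial ribosome, whose proteins are nearly all encoded in the nucleus and which translates the respiratory subunits kept in mitochondrial DNA, followed the same direction. Of 75 kept mitochondrial ribosomal protein genes 51 had mRNA at least 2-fold lower and 72 had footprints at least 2-fold lower, and none was higher. The medians were -1.21 for mRNA and -1.62 for footprints in 4Gts, against -0.50 and -0.49 in WT, while SC replicates differed by at most 0.11 and 0.09. MRPL8, a large-subunit protein, had 129 and 34.1 RPKM of mRNA and 288 and 58.7 RPKM of footprints in 4Gts at 0 h and 2 h. WT had 186 and 114 RPKM of mRNA and 430 and 286 of footprints, a smaller difference from a higher start. The list stood lower in 4Gts than in WT already at 0 h, with summed mRNA of 13307 against 20507 RPKM.

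The tricarboxylic acid cycle and the carbon metabolism around it were lower too. In the cycle 17 of 18 kept genes were at least 2-fold lower in mRNA, with a median of -1.71 (WT -0.57; at most 0.23 between SC replicates). MDH1, mitochondrial malate dehydrogenase, had 893 and 91.0 RPKM in 4Gts, while WT had 823 and 741. CIT1, mitochondrial citrate synthase and named here after its values were seen, had 396 and 91.3 against 503 and 603. CIT2, the peroxisomal citrate synthase and a target of the retrograde response to failing mitochondria, was higher at 2 h, with 69.2 and 582 RPKM in 4Gts, while WT had 38.5 and 119. HAP4, also named after its values were seen, is the activating subunit of the Hap complex that drives respiratory genes and had 304 and 100 RPKM of mRNA in 4Gts, against 314 and 485 in WT. The directions of HAP4 and of most respiratory genes were thus the same in 4Gts.

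Genes for using sources other than glucose were among the lowest at 2 h. Of 15 kept genes of the glyoxylate cycle and gluconeogenesis 13 were at least 2-fold lower, with a median of -2.02 (WT -0.42; at most 0.95 between SC replicates), and 9 members were below the level kept. JEN1, the lactate and pyruvate carrier, had 452 and 28.4 RPKM in 4Gts, while WT had 367 and 336. Of 15 hexose transport and signalling genes 7 were kept and 6 of those were lower, with a median of -3.25 against -0.55 in WT. With no filter, which lets in 6 more members, the 4Gts median was -1.57. SUC2, the invertase that is held down by glucose, had 1364 RPKM pre-shift, 4556 at 0 h and 362 at 2 h in 4Gts, while WT had 2187, 4621 and 1385. It was thus lower at 2 h in both strains and lowest in 4Gts. HXT7, a high-affinity hexose transporter, had 252 and 28.2 in 4Gts, against 230 and 56.7 in WT, but HXT6 and HXT7 are near-identical and their reads may be shared. A pair of transporters that glucose is known to induce had the opposite direction and are named because of it. HXT3 mRNA had 5.11 RPKM at 0 h and 144 at 2 h in 4Gts, from 18 and 563 reads, and 5.44 and 4.09 in WT. HXT1 mRNA had 0.565 and 17.8 RPKM in 4Gts, from 2 and 70 reads, and 0 and 0.452 in WT. Their footprints stayed low at 2 h, 8.36 RPKM for HXT3 and 4.82 for HXT1, so neither reached the level kept in both layers. No sugar was measured, and whether the medium of this culture differed from that of WT was not tested.

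Glycolysis and ethanol genes had 11 of 19 kept mRNAs at least 2-fold lower in 4Gts and none higher, with a median of -1.32 (WT -0.82; at most 0.89 between SC replicates). The hexose kinases stood out within the list. HXK1 had 6644 and 394 RPKM in 4Gts, while WT had 8297 and 3276, and GLK1 had 2472 and 179 against 2990 and 1805. The main pyruvate decarboxylase, PDC1, differed less and had 5687 and 4366 RPKM in 4Gts, while WT had 6596 and 3903. Its log2 differences were -0.54 in 4Gts and -0.85 in WT, so the lower value was in WT.

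**Figure D2:**
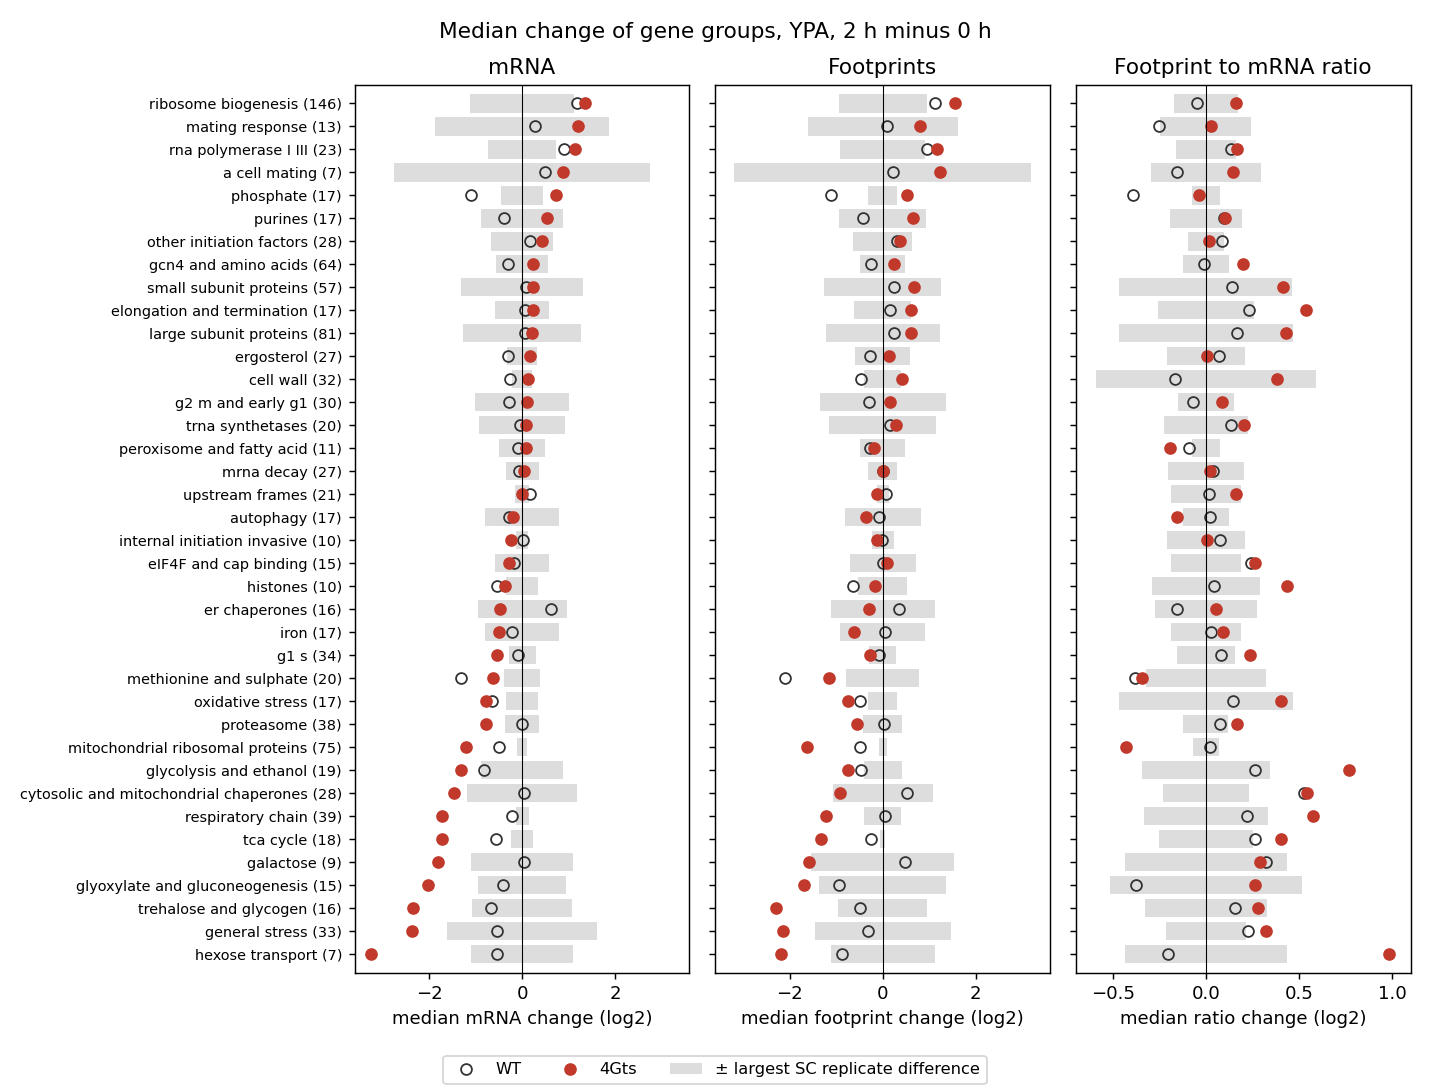
Median log2 difference, 2 h minus 0 h, of each gene list with at least 7 kept members (number in brackets) in mRNA, footprints and their ratio. Filled red points are 4Gts, open points WT, 1 culture per strain and time, and grey bars span plus and minus the largest difference of the list's median between SC replicates. Respiratory chain (mRNA -1.71) and mitochondrial ribosomal proteins (-1.21) lie far outside narrow grey bars, while ribosome biogenesis (1.35 in 4Gts, 1.17 in WT) lies just outside a wide one.

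The plot of list medians separates lists that are steady between SC replicates, such as the respiratory chain, from lists that vary widely between them, such as chaperones, general stress, galactose and both mating lists. The latter are given with that spread.

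Chaperone mRNAs were lower at 36 °C in 4Gts, where WT had them level or higher. Of 28 kept cytosolic and mitochondrial chaperones 18 were at least 2-fold lower in 4Gts and none higher, with a median of -1.46, against 0 lower, 3 higher and a median of 0.04 in WT. SC replicates differed by up to 1.17 for this list, so the margin over replicate spread was modest. SSA1, a main cytosolic Hsp70, had 832 RPKM pre-shift, 2074 at 0 h and 240 at 2 h in 4Gts, while WT had 1146, 1685 and 1807. HSP42, a small heat shock protein, had 182 and 16.7 RPKM in 4Gts, while WT had 278 and 237. HSP104, the disaggregase, had 511 and 106 against 755 and 884. All 3 were closer between strains at 0 h than at 2 h. HSP26, a small heat shock protein strongly induced by heat, had 22.3 and 12.4 RPKM in 4Gts, while WT had 70.0 and 887, so the strains were further apart at 2 h than at 0 h. SSA4, the most heat-inducible cytosolic Hsp70, had 16.0 and 15.3 in 4Gts, against 27.6 and 72.2 in WT. HSP26 and SSA4 were also the most variable of the named chaperones between SC replicates, by up to 3.58 and 3.56 on the log2 scale. HSP82, the inducible Hsp90, had 277 and 103 RPKM in 4Gts, while WT had 462 and 819. Footprints of the chaperone list had a median of -0.91 in 4Gts and 0.53 in WT, with 13 members lower in 4Gts.

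General stress genes, most of them known targets of Msn2 and Msn4, were also among the lowest at 2 h. Of 33 kept members 27 had mRNA at least 2-fold lower in 4Gts and 1 higher, with a median of -2.36, against 6 lower and a median of -0.53 in WT. SC replicates of this list differed by up to 1.61. HSP12, a membrane-protecting stress protein, had 11.5 RPKM pre-shift, 382 at 0 h and 7.02 at 2 h in 4Gts, while WT had 30.0, 269 and 287. Its log2 difference was -5.72 in 4Gts, and the 5 reads behind the 2 h value give a 95% counting interval of -7.55 to -4.67, computed from reads without the pseudocount. Footprints of HSP12 had the same direction, with 1132 and 29.0 RPKM in 4Gts, while WT had 511 and 700. STF2, a protein of desiccation tolerance, had 651 and 57.6 RPKM in 4Gts, while WT had 1365 and 995. Trehalose and glycogen genes, which make and break the storage carbohydrates, had 13 of 16 members lower and none higher, with a median of -2.35 (WT -0.67; at most 1.07 between SC replicates). GPH1, glycogen phosphorylase, had 815 and 35.3 RPKM in 4Gts, while WT had 1030 and 403. Both strains were lower at 2 h for GPH1, by different amounts. Proteasome genes had a smaller and uniform difference: all 38 were below 0 in 4Gts, 7 of them at least 2-fold, with a median of -0.77 against -0.01 in WT and at most 0.36 between SC replicates.

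The galactose genes were induced alike in both strains at 0 h and lower in 4Gts at 2 h. GAL1, galactokinase, had 35.3 RPKM pre-shift, 3754 at 0 h and 923 at 2 h in 4Gts, while WT had 16.2, 3727 and 6319. GAL2, the galactose permease, had 2560 and 291 in 4Gts, against 2608 and 2439 in WT. The strains were level at 0 h for both genes, and at 2 h WT was the higher. GAL10 had 2181 and 1240 RPKM in 4Gts, while WT had 2212 and 4451, and GAL7 had 2572 and 1448 against 3400 and 4392. GAL80, the inhibitor of Gal4, had 190 and 192 in 4Gts, against 180 and 196 in WT, close between the times in both. GAL4 mRNA had 21.7 and 5.24 RPKM in 4Gts, while WT had 17.7 and 21.4, but with 51 and 3 footprint reads it was not kept. Over the list, 6 of 9 kept members were at least 2-fold lower and none higher, with a median of -1.80 (WT 0.03; at most 1.09 between SC replicates).

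**Figure D3:**
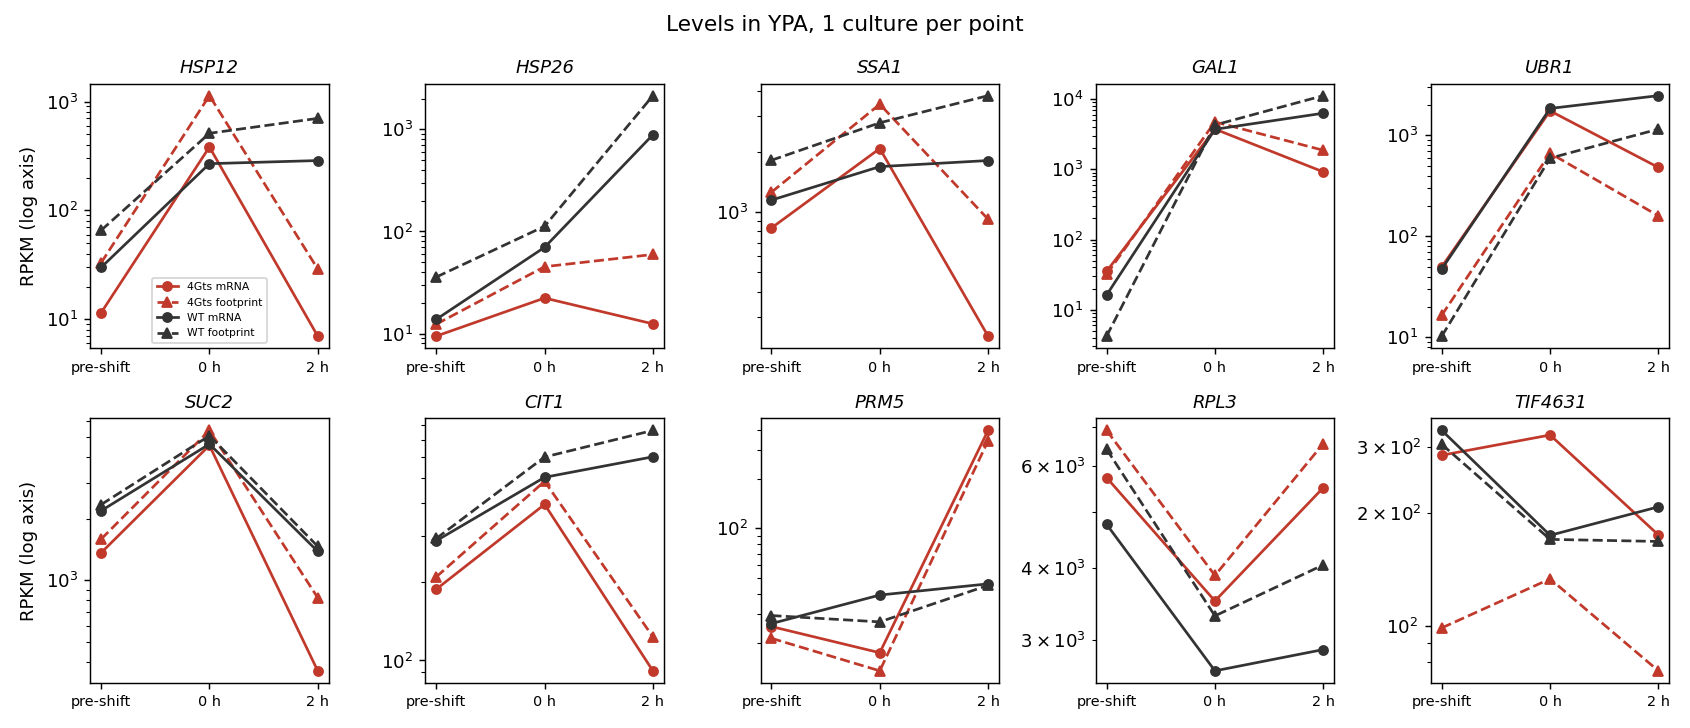
RPKM (log axis, scaled separately in each panel) of 10 named genes in the pre-shift, 0 h and 2 h cultures, mRNA as circles with full lines and footprints as triangles with dashed lines, 4Gts in red and WT in black, 1 culture per point. In mRNA, HSP12, SSA1, GAL1, UBR1 and CIT1 are nearer each other in the 2 strains at 0 h than at 2 h, with 7.02 RPKM of HSP12 mRNA in 4Gts against 287 in WT at 2 h. HSP12 footprints are higher in 4Gts than in WT at 0 h. PRM5 mRNA goes from 17.4 to 397 in 4Gts and from 39.2 to 45.8 in WT.

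The plot of levels by stage also shows where 2 h stood against pre-shift. SUC2, SSA1, HSP12 and CIT1 were below their pre-shift level at 2 h in 4Gts, while GAL1 and UBR1 were still above it. For the lists, summed mRNA of the respiratory chain was 19684 RPKM pre-shift in 4Gts, 30622 at 0 h and 10073 at 2 h, so the 2 h level was below both. Ribosome biogenesis had the mirror pattern, 22861, 11093 and 29116 RPKM.

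Genes that build ribosomes were higher at 2 h in both strains. Of 146 kept ribosome biogenesis genes 124 had mRNA at least 2-fold higher in 4Gts and 106 in WT, and none was lower, with medians of 1.35 and 1.17. SC replicates of this list differed by up to 1.13. Footprints gave 131 higher and a median of 1.55 in 4Gts, against 1.13 in WT. RRP36, a factor of early 18S rRNA processing, had 15.7 and 88.4 RPKM of mRNA in 4Gts, against 17.5 and 39.1 in WT. DHR2, an RNA helicase of the same step, had 6.99 and 41.3 in 4Gts, against 3.51 and 16.1 in WT. Both were higher at 2 h in both strains. RNA polymerase I and III genes went with them, with 13 of 23 members higher in 4Gts and 10 in WT, and medians of 1.14 and 0.90 (at most 0.73 between SC replicates). Within these lists JJJ1, a J-protein that recycles a factor of the large subunit, had the greatest mRNA difference in 4Gts, 2.83, but its footprint difference was 1.36.

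Ribosomal protein genes differed little in mRNA. The 81 large-subunit genes had a median of 0.22 with 0 at least 2-fold higher, and the 57 small-subunit genes 0.24 with 1, against 0.06 and 0.09 in WT. SC replicates differed by up to 1.31 for these lists, well above the 4Gts medians. Footprints were somewhat higher, with medians of 0.62 and 0.68 in 4Gts, in 4Gts, against 0.25 and 0.24 in WT. Their ratio medians, 0.43 and 0.41, were both 0.05 under quantile normalization. Over all alternatives the footprint medians ran from 0.37 to 0.70 and from 0.39 to 0.75. RPL3, a large-subunit protein, had 3505 and 5501 RPKM of mRNA and 3879 and 6554 of footprints in 4Gts, and 2654 and 2889 of mRNA and 3303 and 4046 of footprints in WT. RPS14B had the largest footprint difference among them, 207 and 1129 RPKM in 4Gts, while WT had 405 and 472. The many ribosomal protein pairs are near-identical, so reads of RPS14B may be shared with its copy.

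Most initiation factor mRNAs stayed within 2-fold in 4Gts, as most mRNAs of all genes did. In the list of eIF4F and cap-binding factors 4 of 15 kept members were at least 2-fold lower, where 15.2% of all genes were. Among the 4 were TIF4631 itself, DBP1 (20.1 and 7.27 RPKM) and SBP1 (472 and 207). CDC33, which is eIF4E, had 650 and 638 RPKM in 4Gts, while WT had 545 and 704. PAB1, the poly(A)-binding protein, had 595 and 673 against 617 and 583, and DED1, a helicase that helps scanning, 418 and 585 against 346 and 482. These 3 did not differ by 2-fold in either strain. TIF1 and TIF2, which encode the same eIF4A protein, had mRNA differences of -0.13 and -0.03 and footprint differences of 0.90 and 0.73 in 4Gts, against 0.02 and 0.03 for footprints in WT. Their reads may be shared between the copies. Among 28 other initiation factors 2 were higher, GCD10 and GCD14, both tRNA-modification subunits, and the median was 0.43 (WT 0.17; up to 0.66 between SC replicates).

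**Figure D4:**
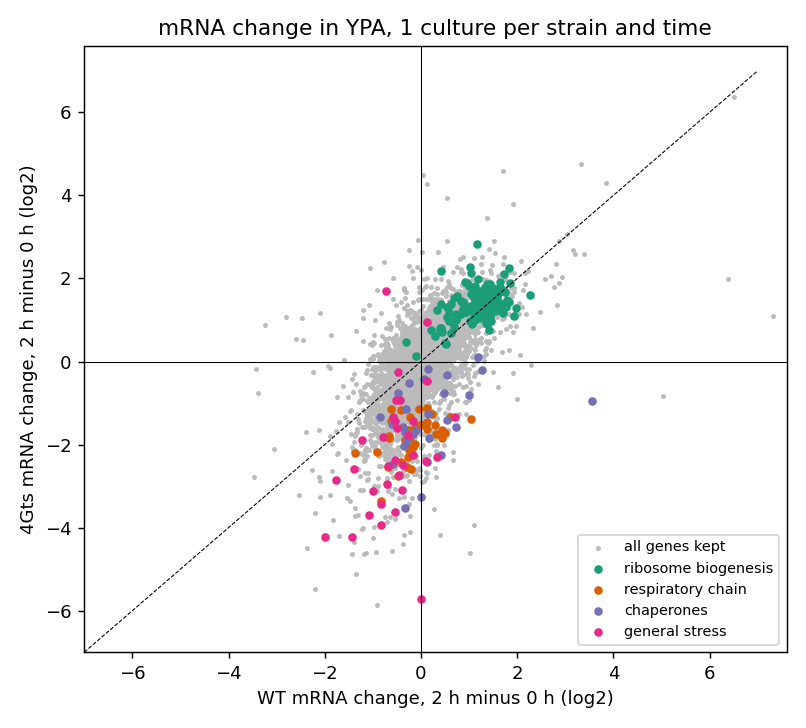
mRNA log2 difference, 2 h minus 0 h, in WT (x axis) and in 4Gts (y axis) for the 4755 genes kept (grey), with ribosome biogenesis, respiratory chain, chaperone and general stress genes in colour. The dashed line marks equal differences. Ribosome biogenesis genes lie near the line (medians 1.17 and 1.35), and the other 3 coloured lists lie below it, with medians of -0.22 against -1.71 for the respiratory chain.

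The strain against strain plot places the shared part of the response, ribosome biogenesis, near the line of equality and the other coloured lists below it. Over all genes kept by their 4Gts levels, the difference in 4Gts minus that in WT was at least 2-fold higher for 220 genes (4.63%) in mRNA. It was at least 2-fold lower for 493 (10.4%). Under quantile normalization these counts were 349 and 479. Beyond the lists above, EGO4, a vacuolar TORC1-associated protein, had 316 and 22.0 RPKM in 4Gts, while WT had 613 and 1395. PRM5, a gene regulated by pheromone and by cell wall stress, had the greatest excess over WT among genes with enough reads, 17.4 and 397 RPKM against 39.2 and 45.8. YDR222W, an uncharacterized gene named after its values were seen, had 6.24 and 180 RPKM of mRNA and 1.19 and 210 of footprints in 4Gts, and at most 5.30 and 1.33 in WT at these times.

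Some cell wall integrity genes were at least 2-fold higher at 2 h in 4Gts and not in WT, a difference that was not tested. SLT2, the MAP kinase of that pathway, had 73.8 RPKM pre-shift, 70.0 at 0 h and 493 at 2 h in 4Gts, while WT had 75.4, 60.8 and 83.0. PST1, a cell wall protein, had 61.2 and 445 in 4Gts, against 117 and 104 in WT, and PIR3, another, 4.50 and 44.6 against 4.60 and 7.61. GSC2, a glucan synthase, was higher at 2 h in both strains, with 25.0 and 76.7 against 22.5 and 74.1 RPKM. Of 32 kept cell wall genes 8 were higher and 3 lower in 4Gts mRNA, with a median of 0.12. Footprints had 11 higher and 2 lower, with a median of 0.42 (WT -0.47; at most 0.39 between SC replicates). The footprint difference in 4Gts minus that in WT had a median of 1.20, with 29 of 32 members above 0 and 18 at least 2-fold higher, where 5.99% of all genes were. For the ratio that median was 0.67, with 27 members above 0. SC replicates of the ratio differed by at most 0.59, but that is a single difference and the 0.67 is a difference of 2 differences. The 0.67 is therefore not shown to lie outside replicate spread. FLO11, the flocculin of filamentous growth, was the lowest of them at 1042 and 137 RPKM in 4Gts, while WT had 680 and 498.

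Genes of mating had higher values at 2 h, in a strain of a cells with no pheromone named in the labels. Of 13 kept mating-response genes 8 were at least 2-fold higher in 4Gts and 0 lower, with a median of 1.19 (WT 0.28). AGA1, the anchor of agglutinin, had 12.4 and 84.3 RPKM in 4Gts, while WT had 10.3 and 21.1. FUS1, a cell fusion protein, had 4.41 and 32.9 against 4.58 and 18.7. SC replicates of this list differed by up to 1.87 and of the a-cell list by up to 2.76, so neither median exceeded the replicate spread. Marker genes of sporulating cells summed to 22.6 and 36.8 RPKM of mRNA in 4Gts.

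Phosphate genes were opposed between the strains. The list, most of it genes that Pho4 drives when phosphate is scarce, had 6 of 17 kept members higher and 0 lower in 4Gts, and 1 higher and 9 lower in WT, with mRNA medians of 0.73 and -1.09 and at most 0.46 between SC replicates. The greatest mRNA differences of the list in 4Gts were those of PHO3, an acid phosphatase that does not need phosphate scarcity, at 1.60, and CTF19, a kinetochore gene, at 1.53, and PHO3 was also the member higher in WT, at 1.53. PHO84, the high-affinity phosphate transporter, had 1314 RPKM pre-shift, 841 at 0 h and 2204 at 2 h in 4Gts, while WT had 1103, 912 and 419. PHO5, a secreted acid phosphatase, had 35.3 and 83.4 in 4Gts, against 163 and 24.1 in WT. PHO5 also started lower in 4Gts. ZRT1, the high-affinity zinc transporter, had 163 and 881 RPKM in 4Gts, while WT had 40.6 and 40.7. GCV1 and GCV2, subunits of the glycine cleavage system, had 76.1 and 409 and 99.8 and 251 RPKM in 4Gts, and 122 and 62.2 and 121 and 29.2 in WT. ADE17, a purine enzyme, had 36.7 and 220 in 4Gts, against 43.3 and 26.8 in WT, and 7 of 17 kept purine genes were higher in 4Gts with 1 lower. The purine median of 0.54 in 4Gts was below the 0.74 to 0.88 by which SC replicates differed. The methionine and sulphate list was lower in both strains, with medians of -0.63 in 4Gts and -1.32 in WT.

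Of 64 kept Gcn4 targets and amino acid genes 14 were higher and 4 lower in 4Gts, with a median of 0.24 (WT -0.29; up to 0.56 between SC replicates). ARG3 and CPA1, of arginine synthesis, were higher at 2 h in both strains, while GCV1, second in the list in 4Gts, was lower in WT. ARG3 had 5.77 and 62.3 RPKM in 4Gts, while WT had 3.68 and 40.0, and CPA1 had 106 and 510 against 63.9 and 219. GCN4, whose translation is governed by upstream reading frames, had 1510 and 1639 RPKM of mRNA and 30.2 and 39.6 of footprints in 4Gts. In WT it had 1256 and 1333 of mRNA and 50.8 and 46.0 of footprints. The GCN4 ratio differences, 0.34 and -0.24, were below the largest SC replicate difference of 2.09.

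Among the 10 mRNAs with the greatest positive differences over the whole table, at 50 reads or more on average, were YRO2, a membrane protein related to Hsp30, CTR3, a copper transporter, TPO2, a polyamine exporter, and MCH5, a riboflavin transporter. YRO2 had 7.55 and 257 RPKM in 4Gts, while WT had 15.2 and 171, and CTR3 had 4.08 and 109 against 25.0 and 397. Both were thus higher at 2 h in both strains. TPO2 had 8.91 and 166 in 4Gts, against 6.42 and 10.5 in WT, and MCH5 had 22.3 and 357 against 7.82 and 34.4. Among the 10 lowest were HSP12, RGI1, RGI2, GPH1, TMA10, PGM2, MAL12, a maltase, and MPC3, a subunit of the mitochondrial pyruvate carrier. RGI1, needed for growth on respired carbon, had 830 and 38.1 RPKM in 4Gts, while WT had 1815 and 1271. RGI2 had 115 and 1.82, the latter from 2 reads, with a 95% counting interval of the log2 ratio from -9.19 to -4.24. DSF1 is also among them, at 144 and 1.73 RPKM, but it is near-identical to MAN2 and their reads may be shared.

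Footprints per mRNA differed by list in a way the mRNA did not. Mitochondrial ribosomal proteins had a ratio median of -0.43 in 4Gts, with 71 of 75 members below 0 and 7 at least 2-fold lower, against 0.02 in WT and at most 0.07 between SC replicates. MRPS17, a small-subunit protein, had 102 and 83.4 RPKM of mRNA but 224 and 67.5 of footprints in 4Gts, so its ratio went from 2.21 to 0.810. In WT its ratio was 1.39 and 1.25. MRPL40 had 123 and 73.5 of mRNA and 228 and 57.8 of footprints in 4Gts, and 194 and 136 and 303 and 229 in WT. The ratio differences were -1.36 and -1.15 for these genes in 4Gts, against -0.16 and 0.10 in WT.

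The opposite held for glycolysis and the respiratory chain, whose ratio medians were 0.77 and 0.58 in 4Gts, against 0.26 and 0.22 in WT, with at most 0.34 and 0.33 between SC replicates. All 19 kept glycolysis genes were above 0 and 4 were at least 2-fold higher. ENO2, enolase, had 3446 and 2066 RPKM of mRNA and 5865 and 7307 of footprints in 4Gts, so the layers went in opposite directions. PDC1 did the same, with footprints of 7167 and 11068. COX7, a cytochrome c oxidase subunit, had 1087 and 383 of mRNA and 1558 and 1423 of footprints, a ratio difference of 1.44 against -0.34 in WT. Chaperones had a ratio median of 0.54, but WT had 0.53. Both mRNA level and gene length went along with the ratio: in the 950 genes with the highest WT mRNA, at least 179 RPKM, the median ratio difference was 0.31 in 4Gts and 0.13 in WT, and in the 950 lowest it was -0.07 in both. The 939 genes of the shortest coding length had 0.16 in 4Gts and the 936 longest -0.04. Under quantile normalization, which makes all libraries alike in distribution, the medians were 0.41 for glycolysis and 0.32 for the respiratory chain. Glycolytic and ribosomal protein genes are highly expressed, and what part of their ratio values goes with level was not tested.

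**Figure D5:**
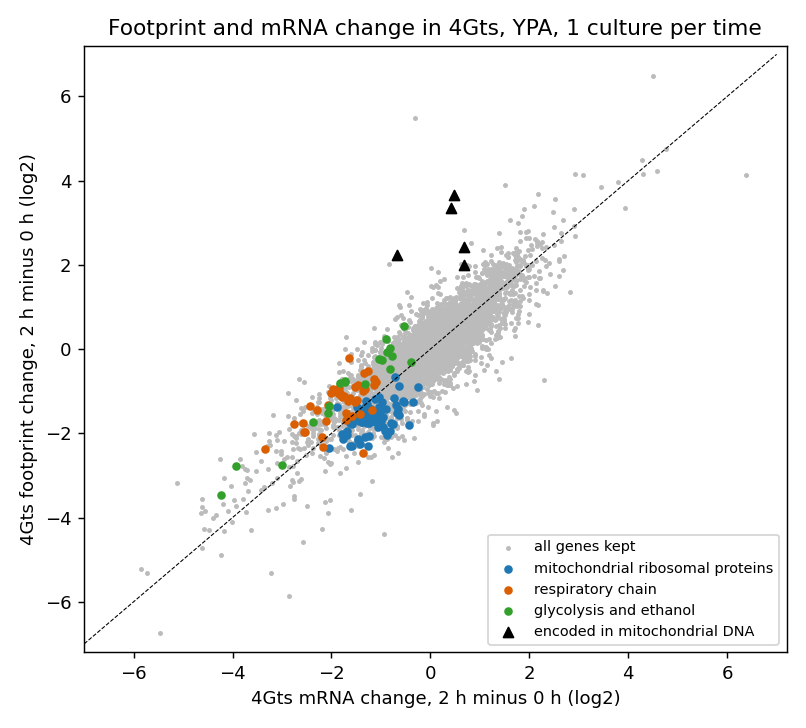
mRNA log2 difference (x axis) against footprint log2 difference (y axis) in 4Gts, 2 h minus 0 h, for the 4755 genes kept, with mitochondrial ribosomal proteins in blue, respiratory chain in orange, glycolysis and ethanol in green, and genes encoded in mitochondrial DNA as black triangles. The dashed line marks an equal difference in both layers. Mitochondrial ribosomal proteins lie mostly below it (ratio median -0.43), glycolysis genes above it (0.77), and the 5 kept mitochondrial genes well above it.

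These list shifts were smaller than the mRNA medians of the same lists, but not always small: glycolysis had 0.77 for the ratio against -1.32 for mRNA. The plot of footprint against mRNA differences has most genes near the line. The genes far from it include those in mitochondrial DNA. COB, cytochrome b (mitochondrial genome, 36540 to 43647 in R64), had 3087 and 4600 RPKM of mRNA and 2.06 and 32.0 of footprints in 4Gts. In WT it had 2264 and 4350 of mRNA and 1.54 and 5.99 of footprints. Read numbers of COB and COX1 are not given, because the lengths used for them were genomic spans with introns, which makes them too high. COX1 had 2.78 and 20.6 RPKM of footprints in 4Gts against 2.21 and 3.27 in WT. COX2, COX3, OLI1, ATP6 and ATP8, named after their values were seen, also had higher footprint values at 2 h than at 0 h in both strains, on few reads. The 4Gts footprint reads were 4 and 17 for COX2, 3 and 29 for COX3, 6 and 13 for OLI1, 10 and 11 for ATP6, and 1 and 2 for ATP8. These footprint levels are minute beside the mRNA, a ratio of 0.000669 and 0.00695 for COB in 4Gts. Pre-shift COB footprints in 4Gts were 12.3 RPKM, so the 0 h value was the low one of the 3. Cycloheximide acts on cytosolic and not on mitochondrial ribosomes, introns of COX1 and COB hold other genes that share reads with them, and what part of these reads came from mitochondrial ribosomes was not tested.

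Single genes with large ratio differences differed in which layer carried the difference. Of the 141 genes with a ratio at least 2-fold higher, 62 had mRNA at least 2-fold lower, 51 had footprints at least 2-fold higher and 63 had mRNA within 2-fold. FIT2 and FIT3, cell wall proteins of iron uptake, were of the first kind. FIT3 had 1868 and 283 RPKM of mRNA and 2009 and 1034 of footprints in 4Gts, a ratio difference of 1.84, against 0.32 in WT. SRB2, a Mediator subunit, had 83.1 and 59.2 of mRNA and 30.3 and 66.8 of footprints, a difference of 1.67 with a counting SE of 0.31. WT had 0.92 for SRB2. Of the 146 lower ratios 75 had footprints at least 2-fold lower, 37 had mRNA at least 2-fold higher and 89 had mRNA within 2-fold. Over all genes mRNA was at least 2-fold lower for 15.2% and higher for 12.0%, and footprints lower for 15.6% and higher for 12.4%. The ratio is computed from both layers, so larger shares among these genes follow in part from its definition. ATG19, a receptor of selective autophagy, had 102 and 89.8 RPKM of mRNA but 87.2 and 20.5 of footprints in 4Gts, against 126 and 101 of mRNA and 94.9 and 77.5 of footprints in WT. COX10, an enzyme of haem A synthesis, had 67.1 and 27.4 of mRNA and 43.7 and 3.25 of footprints, the last from 6 reads. OMS1, a mitochondrial protein, had 27.8 and 34.2 of mRNA and 47.9 and 14.9 of footprints. MET3 and MET14, the first enzymes of sulphate assimilation, had ratio differences of -2.20 and -1.81 in 4Gts, against -1.78 and -1.95 in WT, so theirs was shared by both strains.

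CLN3 and HAC1, known for control at translation, gave these values. CLN3, a G1 cyclin, had 122 and 135 RPKM of mRNA and 18.2 and 9.03 of footprints in 4Gts, from 107 and 21 footprint reads, and 26.8 and 25.1 of footprints in WT. Its ratio difference of -0.998 exceeded the largest SC replicate difference of 0.76. HAC1, whose unspliced mRNA is held back from translation until the endoplasmic reticulum is stressed, had 39.7 and 47.0 RPKM of footprints in 4Gts, against 110 and 373 in WT, with mRNA of 2553 and 2952 against 1570 and 1983. The WT ratio difference of 1.41 was below the SC replicate difference of 1.58. KAR2, the main chaperone of the endoplasmic reticulum and a target of Hac1, had 292 and 169 RPKM of mRNA in 4Gts, against 377 and 798 in WT. The list of endoplasmic reticulum chaperones had 2 of 16 members lower in 4Gts with a median of -0.48, and a median of 0.62 in WT, with up to 0.96 between SC replicates.

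The ratio differences of 4Gts and WT had a Pearson r of 0.207 over 4755 genes, against 0.614 for mRNA. Both are given as descriptions across genes of the same libraries. The SD of the ratio differences was 0.55 in 4Gts and 0.43 in WT, near the 0.35 to 0.50 of the SC replicate pairs. Values of that size can give a low r whether or not the strains share a response, so none is read from it. The difference of the ratio from WT was at least 2-fold higher for 251 genes (5.28%) and lower for 160 (3.36%), together 8.64%, and without scaling for 205 and 218, so no excess in one direction held under both. Among the higher were HXT2, whose WT footprints went from 273 to 4.92 RPKM with mRNA of 492 and 240, while 4Gts had 468 and 270 of footprints with mRNA of 910 and 402.

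Of 34 kept G1/S genes 11 were at least 2-fold lower in 4Gts mRNA and 1 higher, with a median of -0.54 (WT -0.08; at most 0.29 between SC replicates). CLN1 and CLB6, cyclins of that transition, had 135 and 43.8 and 32.4 and 8.44 RPKM in 4Gts, and 163 and 173 and 25.8 and 23.9 in WT. Oxidative stress genes were lower in both strains, with medians of -0.77 and -0.65. The iron list had 5 lower and 2 higher of 17, with a median of -0.50 and up to 0.79 between SC replicates. Its 2 higher members, ARN1 and FRE1, were higher in WT as well, FRE1 with 14.3 and 108 RPKM in 4Gts, while WT had 12.6 and 128. Lists of mRNA decay, ergosterol, tRNA synthetases, autophagy, peroxisomes and genes with upstream reading frames had mRNA medians between -0.20 and 0.17 in 4Gts. URA3, a gene often used as a marker in strain construction, had 254 and 240 RPKM in 4Gts, while WT had 146 and 119.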

How the data were processed

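Ribosome footprints and total mRNA of 1 culture per strain and time in YPA were analysed, with WT and pre-shift cultures for comparison. The authors deposited RPKM values per gene in 1 table per layer and medium, and the submitters' processing notes name TopHat, the build sacCer3 and DESeq, the last with no role. For versions and for the strand setting of the counts, nothing is stated in the labels. The ratio values deposited by the authors equal footprint over mRNA RPKM times 1 constant per culture, and they were used only as an alternative. In low RPKM values the steps of 1 read gave depth and reads per gene, with gene lengths shortened by 24 nt: 96.2% to 98.2% of values up to 10 reads were whole within 0.05 reads. Gene lengths were genomic spans, so read numbers of genes with introns are too high. Counting intervals (95%) cover counting error only.

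RPKM were scaled by median ratios, 1 was added and log2 taken. Genes needed a mean of 10 RPKM in each layer. With 1 culture a side no test was possible, the planned description is by size alone, and 2-fold is the fold used for calls. Names come from RefSeq R64, matched for 6008 of 6692 genes. 371 genes are listed at 0 in all 12 YPA libraries and their values were not used. The 8 per-sample columns of the SC ratio table were not used. Named genes are 26 preset ones, the 10 largest differences each way per layer, up to 4 per list and the 8 largest differences from WT each way, the genome-wide ones with at least 50 reads on average. COB and COX1 may fall short of that minimum, since their lengths included introns. COX2, COX3, OLI1, ATP6, ATP8, HXT1, HXT3, YDR222W, CIT1 and HAP4 were added after their values were seen. The libraries, gene lists and named genes were chosen with earlier results of these data known. Alternatives were pseudocounts of 0.1 and 5 RPKM, no filter, a filter of 30 RPKM, no scaling, quantile normalization, the deposited ratios and a minimum of 50 reads. For list medians, leaving out members of 2 lists was a further alternative. Not every gene that falls under the rule is printed. The recovery of depths and log2 differences was checked on simulated data. Python 3.11.15, numpy 2.4.6, pandas 2.3.3, scipy 1.17.1 and matplotlib 3.10.9 were used.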

Additional observations from a re-analysis of the deposited data

Results flagged for a closer look

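Several values lay at least 2-fold apart from 0 h in opposite directions in the 2 strains, or, for lists, had medians beyond 0.5 on the log2 scale in opposite directions. Such genes were rare: of the 4755 kept, 7 mRNAs were 2-fold higher in 4Gts and 2-fold lower in WT, and 3 the reverse. The genes below are among those named, some of which were chosen for their large difference from WT, which favours opposite directions. Each difference between strains was not tested, since there is 1 culture per strain and time, and no value here has a replicate in YPA.

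The phosphate list had an mRNA median of 0.73 in 4Gts and -1.09 in WT, and a footprint median of 0.52 and -1.10. Its member PHO5 had 1.07 and -2.80 for mRNA and 1.21 and -3.50 for footprints, and PHO84 had 1.23 and -1.21 for mRNA and 1.42 and -1.84 for footprints. PHM6, a further member, had 1.36 and -1.09 for mRNA. The glycine cleavage gene GCV1 had 2.26 in 4Gts and -1.05 in WT for mRNA and 2.17 and -1.17 for footprints, and GCV2 had 1.17 and -2.10 for mRNA. Footprints of the zinc transporter ZRT1 differed by 2.74 in 4Gts and -1.81 in WT. SNZ1, a vitamin B6 gene, had 3.90 and -2.56 for footprints and 2.39 and -1.98 for the ratio.

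The opposite sense, lower in 4Gts and higher in WT, was found for the chaperone list in footprints, with medians of -0.91 and 0.53, and for the footprints of SSA4 at -1.19 and 1.86. SSA4 was, as given above, among the named chaperones that varied most between SC replicates. GAL1 footprints differed by -1.42 in 4Gts and 1.29 in WT. EGO4 had -3.94 and 1.09 for mRNA and -3.73 and 1.22 for footprints, and COX5B had -1.37 and 1.04 for mRNA.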

How the results depend on the processing

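No paired analysis was possible because each strain and time in YPA is 1 culture, and leaving out a replicate was not possible for the same reason. Of the counts of genes past 2-fold under an alternative, 75 stayed within 1.5 times and 11 did not. Nearly all of the latter concern the ratio. The 146 ratios at least 2-fold lower became 93 with a pseudocount of 5 RPKM, 221 with no filter, 83 with a filter of 30 RPKM, 97 in the deposited ratio table and 97 with at least 50 reads, a minimum chosen after seeing the data. The 141 higher ratios became 79 with the 30 RPKM filter. For the ratio difference from WT, 251 higher became 140 and 163 with the 30 RPKM filter and the read minimum, and 160 lower became 99 and 92. Both settings test fewer genes, 4071 of 4755 with the read minimum. The deposited ratio table also covers fewer genes than were kept, and leaving out the filter lets in more. The counts under these settings are not shares of the genes tested. Part of their movement may therefore come from the number of genes alone. Quantile normalization gave 349 in place of 220 mRNAs higher than in WT, and the split of the ratio difference from WT was 220 higher and 229 lower with it. Among list medians 1674 moved by less than their spread, 180 by more, and 2 of those beyond 0.5 changed direction: hexose transport footprints against WT were 0.014 with no filter (13 genes; otherwise -0.90) and glyoxylate footprints against WT were 0.20 with the 30 RPKM filter (6 genes; otherwise -1.35). Among values of single genes 12463 moved by less than their spread, 1357 by more, and 0 of those past 2-fold changed direction. Over all alternatives the mRNA median stayed between -1.74 and -1.34 for the respiratory chain, the footprint median between -1.65 and -1.54 for mitochondrial ribosomal proteins, and their ratio median between -0.51 and -0.38. The promoter and leader sequences of the genes were not analysed here. The shallow 2 h footprint library limits ratios of low genes most.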
